A study of Mus musculus with 12 samples.

Results

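The effect of the PHD2 label was compared between 2 kinds of mouse cell, fibroblasts and macrophages, and the genes were sorted by how they responded in each. All 12 libraries of the series were used, 3 in each of 4 groups, and for every gene the difference was taken between the change in fibroblasts (PHD2_KO minus PHD2_WT) and the change in macrophages (PHD2_KO minus PHD2_WT). Of 32544 genes, 14285 had enough counts to be tested, and 10967 of these were measured in both cell types, at a mean of at least 1 CPM (counts per 1e+06 scaled counts) in at least 1 label group of each. The macrophages were bone marrow-derived macrophages (BMDMs), grown from marrow in medium conditioned by L929 cells and lysed 24 h after seeding. Those labelled PHD2_WT came from LysMCre mice, and those labelled PHD2_KO from PHD2cko mice, in which Cre driven by the myeloid LysM promoter should delete PHD2. Every macrophage donor carried LysMCre. The fibroblasts were NIH/3T3 cells, an established mouse line with intact PHD2, that had been starved in 0.1% serum and then kept for 72 h in medium conditioned by BMDMs of either label. In fibroblasts the label thus names the medium, and in macrophages the cell itself, while the time to RNA (24 h or 72 h) differed between the cell types too. The oxygen level of the sequenced cultures was not given in the sources used here. The labels do not say whether the 3 libraries of a group came from separate mice or cultures, so p-values measure the spread between these libraries, which may be technical.

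PHD2 (gene Egln1) is the oxygen sensor that marks the HIF transcription factors for degradation, and its loss is known to stabilize HIF and raise genes of glycolysis, collagen hydroxylation and mitophagy. Cells that receive conditioned medium see no change in their own PHD2 and can respond only to what the macrophages secreted, consumed or left behind. Interferons are secreted proteins that switch on a shared set of antiviral genes in many cell types, whereas the SREBP2 programme of cholesterol synthesis answers to the sterol supply of the cell itself.

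Library totals ran from 15516465 to 25199770 estimated counts. Egln1 lies on chromosome 8 (124908587 to 124949324 in GRCm38) and its level went against the label. Its CPM were 55.8, 54.7 and 55.5 in PHD2_WT macrophages and 68.8, 68.3 and 71.6 in PHD2_KO macrophages, and the label effect was 0.33 ± 0.05 (log2, SE, adjusted p = 0.002 by edgeR's quasi-likelihood test). In fibroblasts it was 0.06 ± 0.05 (adjusted p = 0.49), and the difference was -0.27 ± 0.07 (adjusted p = 0.032), a call lost in 8 of the 12 fits without 1 library and in 4 of 10 other fits, the replicate block among them. Per-gene counts cannot show whether an exon is missing, so directions in macrophages follow the label. The study itself presents PHD2 mRNA in PHD2cko BMDMs against controls as its check of the knockdown, apart from these counts. All macrophage markers were detected in BMDMs, where 23 markers summed to 42400 to 43300 CPM with the WT label and to 37500 to 38900 CPM with the PHD2_KO label. In fibroblasts the same markers summed to 40.6 to 42.1 CPM in WT medium and to 952, 229 and 859 CPM in replicates 1, 2 and 3 in PHD2_KO medium. As a share of the BMDM level this was 0.0951 to 0.0984% against 2.50, 0.601 and 2.26%. Fibroblast markers were at 22200 to 24300 CPM in WT medium and 29300 to 30200 CPM in PHD2_KO medium, and at 1.92 to 6.08 CPM in BMDMs. Markers of B or plasma cells were at 4.06, 4.09 and 5.53 CPM in WT medium and 12.5, 14.5 and 13.3 CPM in PHD2_KO medium, and at 196 to 202 CPM in WT and 160 to 174 CPM in PHD2_KO BMDMs, with 2 or 3 of the markers at 0 in all libraries of a group. These 3 sums separated by label in each cell type except the fibroblast markers in BMDMs, and their part in the results was not tested. Sums for other cell types stayed at or under 3.18 CPM (T or NK cell), 0.216 (neutrophil), 4.55 (dendritic cell) and 53.5 (endothelial cell) in fibroblasts, and at or under 2.12, 0.778, 3.90 and 56.0 CPM in BMDMs. Genes at least 10 times higher in BMDMs, over all 6 libraries, than in fibroblasts in WT medium, 598 of the 10967 measured in both, are called macrophage-type genes and are counted apart, since a few macrophages or their RNA in a fibroblast culture would raise them. These are bulk samples, in which fewer cells of a type and less RNA per cell cannot be told apart. The first fibroblast library in WT medium also stood apart from its 2 fellows, with a chi-square of 25.1 and 27.0 per degree of freedom against 2.35 between the other two.

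The label effect differed between the cell types for 1756 genes. It was higher in fibroblasts for 1102 genes (7.71% of those tested) and lower for 654 (4.58%), at an adjusted p under 0.05 by edgeR, and 3616 genes had an unadjusted p under 0.05. In fibroblasts alone, 1276 genes (8.93%) were higher and 964 (6.75%) lower in PHD2_KO medium. In macrophages, 483 genes (3.38%) were higher and 478 (3.35%) lower with the PHD2_KO label. The medians over all genes tested were near 0, at -0.0046 in fibroblasts, 0.0002 in macrophages and -0.01 for the difference. Of the genes whose difference was called, 610 were of macrophage type (of 1204 such genes tested), and 605 of these had the higher effect in fibroblasts.

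Across the 10369 other genes measured in both, the effects in the 2 cell types showed little relation in sign or size. The same sign was seen for 48.4% of them, with Pearson's r = -0.0177 and Spearman's rho = -0.00341 across genes, which are not independent replicates. The label effect was called in fibroblasts for 1355 of them and in macrophages for 768. Both were called for 183, which is 13.5% of the fibroblast calls and 23.8% of the macrophage calls, and 114 of the 183 moved the same way.

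**Figure D1:**
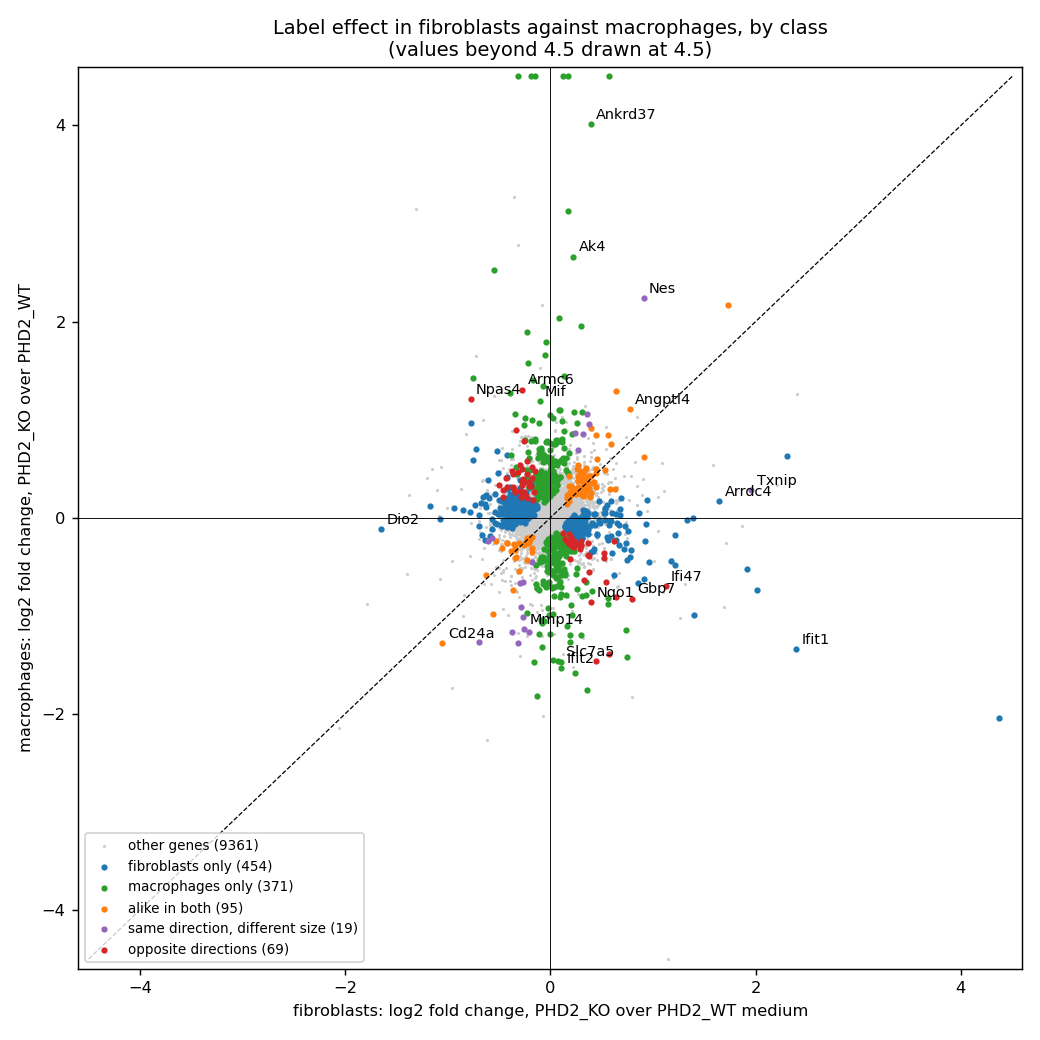
Label effect of each gene in fibroblasts (horizontal axis, log2) against macrophages (vertical axis, log2) for 10369 genes measured in both cell types and not of macrophage type, coloured by class, with the line of equal effects dashed. The 454 genes called in fibroblasts only lie along the horizontal axis, the 371 called in macrophages only along the vertical axis, and the 69 with opposite directions in the upper left and lower right.

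These calls sort the genes into classes. Opposite directions means that both label effects and their difference passed the test with opposite signs, which held for 97 genes, 69 of them not of macrophage type. Fibroblasts only means that the fibroblast effect and the difference passed and the macrophage effect did not (833 genes, 454 not of macrophage type), and macrophages only is the reverse (386 and 371). Alike means that both effects passed with 1 sign and the difference did not (104 and 95). Same direction but different size means that all 3 tests passed with 1 sign (26 and 19). A further 204 genes passed only the test of the difference. Leaving a cell type out of a class says that its own test was missed, not that its effect was 0. Genes named by rule from these classes were required to have separate label groups wherever the class rests on the effect, so that separation describes them and supports nothing. Counts of list members called, 0 included, are by edgeR where no other tool is named. They stand beside shares over all genes tested of 8.93% higher and 6.75% lower in fibroblasts. In macrophages these shares were 3.38% and 3.35%, and in the difference 7.71% and 4.58%.

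Interferon-induced genes moved apart between the cell types, with 39 of 45 on a hand-written interferon list higher in the difference and 0 lower. In fibroblasts 26 of the 45 were higher and 1 lower, in macrophages 0 were higher and 17 lower, and 45 of 45 fitted effects were below 0 in macrophages. The medians were 1.01 in fibroblasts (0.98 with genes near 0 counts at their lower bound), -0.68 in macrophages and 1.86 for the difference, beside medians near 0 over all genes. Of the list, 19 genes were of macrophage type, and among the 26 that were not, 21 were higher in the difference (median 1.22), 11 higher and 1 lower in fibroblasts, and 7 lower in macrophages. By limma-voom, 10 of the 45 were higher in fibroblasts, 21 lower in macrophages and 29 higher in the difference. With 1 library left out, the counts ran from 11 to 39, from 8 to 33 and from 30 to 45 in the same order.

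Gbp7, a guanylate-binding GTPase of host defence, had CPM of 4.32, 6.06 and 5.34 in fibroblasts in WT medium, 13.3, 6.13 and 7.99 in PHD2_KO medium, 62.5, 64.2 and 59.2 in WT macrophages and 33.9, 35.9 and 35.1 in PHD2_KO macrophages. The second fibroblast library in PHD2_KO medium was within 0.1 CPM of a WT one. Its effects were 0.79 and -0.83 (log2), and their difference was 1.62 ± 0.27 (SE, adjusted p = 0.0017). Ifi205, a DNA-binding protein of the interferon-inducible p200 family, was at 9.67, 8.89 and 10.4 (WT) and 16.2, 12.6 and 16.2 (PHD2_KO) CPM in fibroblasts and at 9.74, 9.26 and 8.7 (WT) and 4.92, 4.71 and 6.04 (PHD2_KO) CPM in macrophages. The second library was again the lowest of the 3 in PHD2_KO medium, and the effects differed by 1.45 ± 0.18 (adjusted p = 0.0003). The GTPase genes Gbp4 and Ifi47, the p200 family member Ifi203 and Ly6e, which encodes a membrane-anchored interferon-induced protein, had the same pattern, with differences of 1.96, 1.82, 1.20 and 0.96. Gbp4 and Gbp7, Ifi203 and Ifi205, Ifit3 and Ifit3b, and Trim30a and its neighbours have near-identical relatives between which estimated counts can be split, so their single values are uncertain.

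Not every interferon gene crossed over. Ifit2, a tetratricopeptide protein that binds RNA, was at 43.9, 44.3 and 44.8 (WT) and 52.2, 42.0 and 48.3 (PHD2_KO) CPM in fibroblasts, where the groups overlapped. In macrophages it fell from 143, 134 and 110.0 to 47.2, 38.8 and 47.3 CPM, a log2 change of -1.54 ± 0.11 (adjusted p = 2.3e-06). Ifit1 had the reverse split of calls, with 3.82, 4.06 and 4.76 (WT) and 50.2, 5.26 and 10.5 (PHD2_KO) CPM in fibroblasts, an effect of 2.40 ± 0.65 (adjusted p = 0.026), and a macrophage effect of -1.34 ± 0.51 that missed the threshold (adjusted p = 0.16). Isg20, an interferon-induced exonuclease, was the only list member lower in both cell types, at -0.37 and -1.17. Among macrophage-type members, the antiviral enzyme gene Rsad2 and the chemokine gene Cxcl10 were called in opposite directions, Rsad2 from 0.203, 0 and 0 to 4.42, 0.289 and 1.65 CPM in fibroblasts.

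The rise in fibroblasts was unequal among the 3 libraries in PHD2_KO medium. Isg15, a ubiquitin-like interferon product, was at 6.003, 5.77 and 4.44 CPM in WT medium and at 27.4, 5.26 and 9.98 CPM in PHD2_KO medium, so that replicate 1 was highest and replicate 2 within the WT range. The sum of macrophage markers in the same 3 libraries was 952, 229 and 859 CPM, so it too was lowest in replicate 2. Without replicate 1 of the PHD2_KO medium group, 11 of the 45 were higher in fibroblasts (median 0.49) and 37 were higher in the difference (median 1.25). With replicate 2 as the only library of that group, taken to vary like the others, 1 was higher in fibroblasts (median 0.05), 40 were lower in macrophages and 15 were higher in the difference (median 0.77). After each fibroblast library lost its share of the macrophage profile, 21 were higher in fibroblasts and 36 in the difference (median 1.66), and the difference of Gbp7 was 1.59 (adjusted p = 0.0023). Any part of carried-over cells or RNA in this rise beyond that subtraction was not tested.

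**Figure D2:**
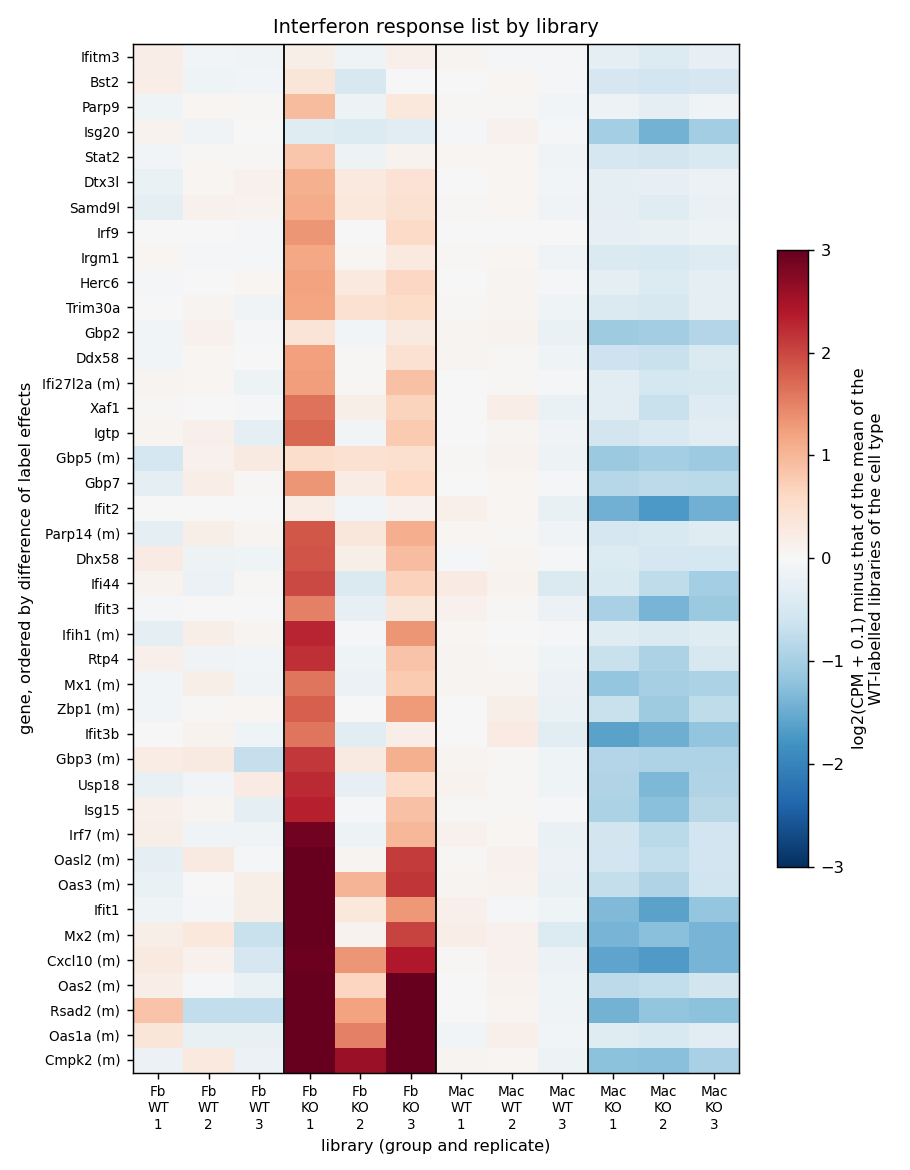
Of the 42 genes of the interferon list measured in both cell types, 41 (rows) by library (columns, Fb fibroblasts, Mac macrophages, WT and KO the label, replicate number below), coloured by log2(CPM + 0.1) minus the same for the mean of the WT-labelled libraries of that cell type and limited to 3 either way. Genes of macrophage type carry an (m). Replicate 1 of the fibroblasts in PHD2_KO medium is reddest, replicate 2 is near the WT level for most genes, and the 3 PHD2_KO macrophage libraries are blue or near white.

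The promoters of 3 interferon genes are shown because each belongs to another class: Gbp7 to opposite directions, Isg15 to fibroblasts only and Ifit3 to macrophages only. They are the 250 bases before a start that RefSeq lists on GRCm38.p6, written 5′ to 3′ along the gene's strand, with matches to the interferon element GAAANNGAA, or TTCNNTTTC on the other strand, in capitals.
Gbp7 (chr3:142530086-142530335, plus strand): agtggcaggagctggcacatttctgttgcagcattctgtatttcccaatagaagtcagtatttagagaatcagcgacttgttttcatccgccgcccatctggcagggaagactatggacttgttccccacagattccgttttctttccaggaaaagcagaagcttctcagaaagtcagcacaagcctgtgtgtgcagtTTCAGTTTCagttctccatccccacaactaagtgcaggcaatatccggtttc
Isg15 (chr4:156200819-156201068, minus strand): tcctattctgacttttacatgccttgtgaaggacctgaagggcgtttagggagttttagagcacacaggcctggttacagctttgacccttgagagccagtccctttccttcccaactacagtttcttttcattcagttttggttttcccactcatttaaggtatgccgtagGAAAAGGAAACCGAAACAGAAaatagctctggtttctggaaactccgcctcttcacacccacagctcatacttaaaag
Ifit3 (chr19:34583279-34583528, plus strand): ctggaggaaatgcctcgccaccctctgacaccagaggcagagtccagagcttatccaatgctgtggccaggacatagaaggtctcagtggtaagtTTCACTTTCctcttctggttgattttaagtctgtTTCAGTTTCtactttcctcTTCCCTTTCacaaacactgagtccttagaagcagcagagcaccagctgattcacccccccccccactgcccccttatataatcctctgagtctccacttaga

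Overlapping matches run together in the capitals. Such a match was found in 19 of 33 list promoters (57.6%) and in 687 of the 10683 promoters of tested genes that could be matched (6.43%). Outside macrophage-type genes it was in 3 of 25 promoters (12%) of genes higher in fibroblasts and lower in macrophages, in 21 of 144 (14.6%) of those lower in macrophages only, in 11 of 146 (7.53%) of those higher in fibroblasts only and in 2 of 51 (3.92%) of those higher in both. A match describes the letters and not a bound site.

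Outside the interferon genes, Sema3c and Nqo1 also rose in fibroblasts and fell in macrophages. Nqo1 encodes a quinone reductase and is a classical target of the oxidative stress factor NRF2. Its CPM were 14.04, 13.1 and 12.4 (WT) and 17.4, 17.6 and 16.95 (PHD2_KO) in fibroblasts, and 11.6, 8.596 and 11.4 (WT) and 5.28, 5.601 and 6.404 (PHD2_KO) in macrophages, and the effects differed by 1.26 ± 0.16 (adjusted p = 0.00035). Of 16 NRF2 targets, 2 were higher and 0 lower in fibroblasts, 0 higher and 1 lower in macrophages, and 2 were higher in the difference (median 0.17). Over all genes tested the shares were 8.93%, 6.75%, 3.38%, 3.35% and 7.71% in that order. With 1 library left out, 0 to 4 were higher in fibroblasts and 2 to 5 in the difference. Sema3c, a secreted guidance protein, went from 43.5, 51.1 and 60.1 to 64.95, 79.2 and 65.9 CPM in fibroblasts and from 4.15, 3.69 and 2.799 to 1.21, 1.64 and 1.05 CPM in macrophages. Its difference was 1.90 ± 0.32 (adjusted p = 0.0018), the second largest of the 8 genes named by rule with this direction, which leaves out macrophage-type genes such as Rsad2 and Cxcl10.

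In the other direction, 37 genes outside the macrophage type fell in fibroblasts and rose in macrophages. Npas4, an activity-induced transcription factor, had CPM of 6.82, 8.67 and 7.98 in WT medium and 4.06, 4.92 and 4.75 in PHD2_KO medium, against 1.43, 1.94 and 1.46 in WT macrophages and 4.37, 4.23 and 2.68 in PHD2_KO macrophages. Its difference of -1.98 ± 0.28 was the largest among the 8 genes named by rule with this direction (adjusted p = 0.00064). Armc6, on chromosome 8, was at 23.0, 21.04 and 21.9 (WT) and 18.4, 17.1 and 18.98 (PHD2_KO) CPM in fibroblasts and at 5.58, 5.45 and 5.41 (WT) and 14.4, 13.5 and 12.8 (PHD2_KO) CPM in macrophages. The macrophage effect of 1.30 was larger than the fibroblast effect of -0.27 in its difference of -1.58 ± 0.10 (adjusted p = 4.6e-06).

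Plk2, a stress-responsive kinase on the p53 target list, fell from 217, 225 and 235 to 172, 166 and 186 CPM in fibroblasts and rose from 58.8, 55.9 and 57.7 to 80.1, 76.1 and 78.8 CPM in macrophages, a difference of -0.82 ± 0.07 (adjusted p = 6e-05). Colec12, a scavenger receptor of the collectin family, moved from 247, 257 and 257 to 205, 219 and 198 CPM and from 20.8, 19.98 and 20.1 to 29.3, 28.96 and 30.1 CPM in the same order. Both changes were small and evenly spread over the libraries, with a difference of -0.83 ± 0.07 (adjusted p = 3.9e-05). The remaining named genes of this direction were Cyp2j6 (a cytochrome P450), Gpr176 (an orphan receptor), Vash2 (a tubulin carboxypeptidase) and Arrdc3 (an alpha-arrestin), with differences between -1.05 and -0.78. The gelatinase gene Mmp2, from the list of matrix proteases, was also in this class, at 942, 929.6 and 945 (WT) and 751, 735 and 752 (PHD2_KO) CPM in fibroblasts but only 0.844, 0.424 and 0.791 (WT) and 0.91, 1.503 and 1.42 (PHD2_KO) CPM in macrophages.

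All 16 named opposite genes kept the call of their difference in every fit that left out 1 library and with replicate 2 as the only library in PHD2_KO medium. Their fibroblast effect alone was less firm. It was called for 8 of the 16 without replicate 1 of that group, for 9 without replicate 3 and for 1 (Plk2) with replicate 2 alone, whereas the macrophage effect was called for 16 of 16 in each of these fits. It was called for 13 or 14 of the 16 without any 1 of the 6 macrophage libraries, and without replicate 2 of the WT medium group the counts were 9 in fibroblasts and 14 in macrophages. Over all 69 genes of the class outside the macrophage type, replicate 2 alone kept the fibroblast sign of 69, the call of the difference for 63 and the class of 9.

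**Figure D3:**
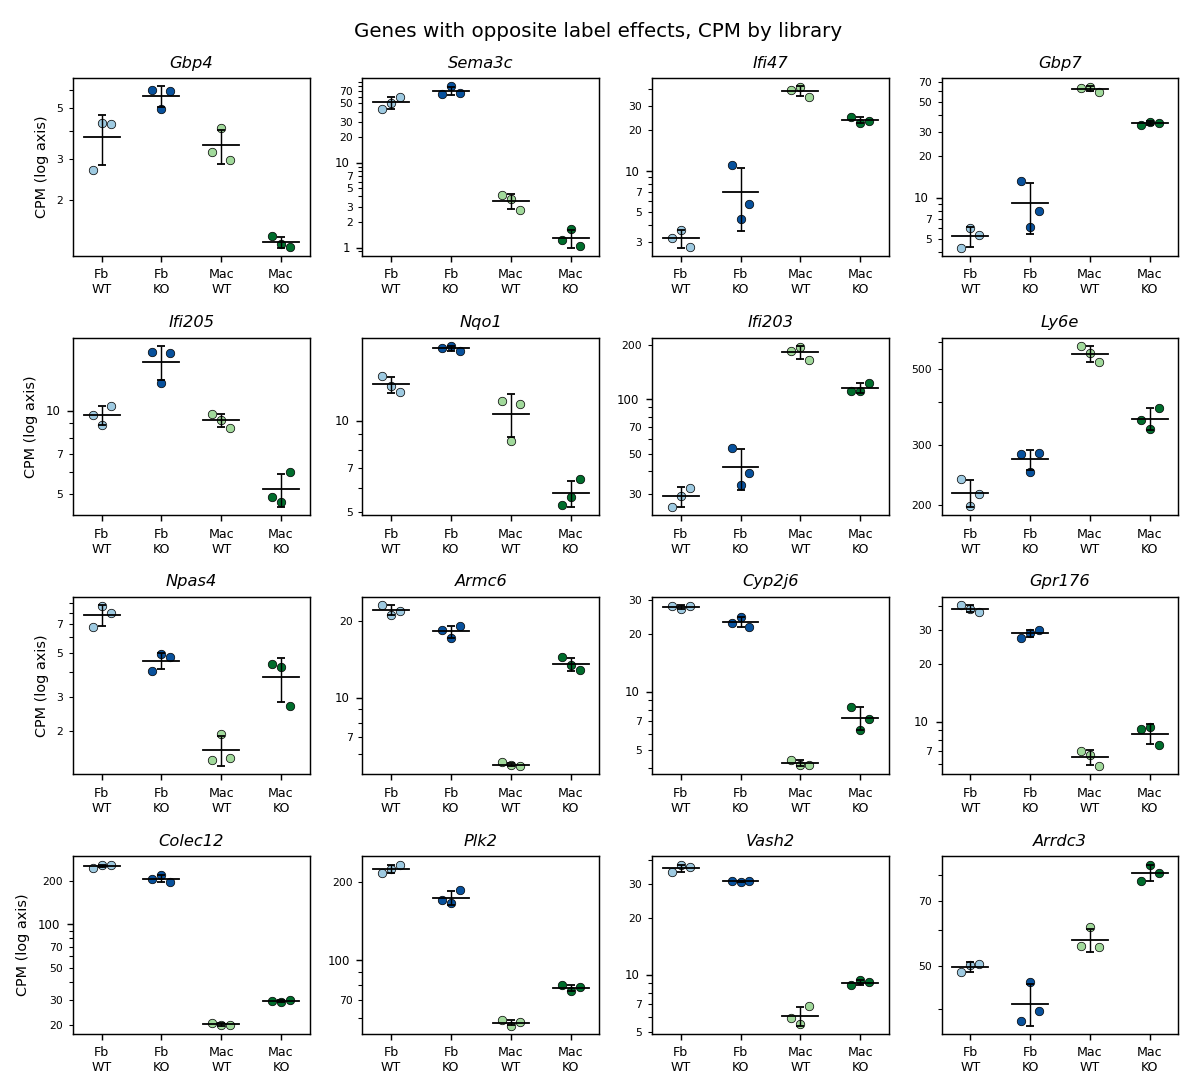
CPM of the 16 named genes with opposite label effects (log axis) in each library of fibroblasts (Fb) in WT or PHD2_KO (KO) medium and of macrophages (Mac) with either label, with the group mean and SD (n = 3). In the first 8 panels the KO points lie above WT in fibroblasts and below it in macrophages, and in the last 8 panels the order is reversed, as the naming rule required.

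Genes with a HIF-linked role changed more in macrophages. Of 30 tested HIF targets outside glycolysis, 15 were higher and 0 lower in macrophages (median 0.26), 4 higher and 3 lower in fibroblasts (median 0.06), and 0 were higher and 10 lower in the difference (median -0.22). Of 21 genes of glycolysis and lactate export, 13 were higher in macrophages (median 0.40), 5 higher and 1 lower in fibroblasts (median 0.12), and 3 were higher and 11 lower in the difference (median -0.33). All of these medians compare with values near 0 over all genes. Without the first WT medium library, 8 HIF targets and 11 glycolysis genes were higher in fibroblasts (medians 0.09 and 0.22), beside 18 and 14 in macrophages. With 1 library left out, the counts lower in the difference ran from 10 to 12 and from 10 to 11.

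Egln3, which encodes the HIF-induced prolyl hydroxylase PHD3, was at 8.09, 6.67 and 6.61 (WT) and 8.43, 9.26 and 8.52 (PHD2_KO) CPM in fibroblasts and at 4.22, 4.601 and 4.14 (WT) and 16.1, 16.7 and 17.5 (PHD2_KO) CPM in macrophages. The macrophage groups were far apart and the fibroblast groups close to each other without overlap, and the difference was -1.66 ± 0.14 (adjusted p = 3e-05). Ankrd37, a small ankyrin-repeat protein known as a HIF target, rose in macrophages from 0.454, 0.363 and 0.426 to 7.28, 6.35 and 6.72 CPM and gave a difference of -3.62 ± 0.27 (adjusted p = 1.3e-05). Bnip3, a mitophagy receptor, went from 35.8, 31.7 and 29.2 to 38.7, 38.3 and 35.1 CPM in fibroblasts (adjusted p = 0.072 by edgeR) and from 34.5, 33.8 and 36.6 to 66.2, 62.6 and 60.0 CPM in macrophages, a difference of -0.64 ± 0.10 (adjusted p = 0.0014). Ak4, a mitochondrial adenylate kinase, had a difference of -2.44 ± 0.15 (adjusted p = 2.2e-06).

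Mif, the macrophage migration inhibitory factor, was at 131, 102 and 105 (WT) and 110.0, 94.5 and 109 (PHD2_KO) CPM in fibroblasts, where the groups overlapped. In macrophages it rose from 43.4, 41.95 and 45.1 to 98.03, 95.9 and 103 CPM, an effect of 1.19 ± 0.09 (adjusted p = 6.8e-06). In glycolysis, the phosphofructokinase gene Pfkl had macrophage CPM of 41.7, 40.9 and 42.1 (WT) and 91.9, 85.2 and 90.5 (PHD2_KO) and a difference of -1.01 ± 0.06 (adjusted p = 1.1e-06), and the lactate dehydrogenase gene Ldha one of -0.44 ± 0.09 (adjusted p = 0.0063). Pgk1 and Eno1, which act in lower glycolysis, and Pdk1, the kinase that shuts pyruvate out of mitochondria, rose in both cell types and more in macrophages. Pdk1 was at 56.01, 56.0 and 55.1 (WT) and 70.5, 73.5 and 73.4 (PHD2_KO) CPM in fibroblasts and at 64.01, 59.6 and 60.4 (WT) and 121, 121 and 116 (PHD2_KO) CPM in macrophages, with effects of 0.38 and 0.96. The 3 glycolysis genes higher in the difference were Pfkfb3, Aldoc and Slc16a3, of which Aldoc and Slc16a3 were of macrophage type. The mitophagy receptor gene Bnip3l and the stress gene Ndrg1 were in the alike class, with differences of -0.04 (95% interval -0.17 to 0.09) and -0.07 (-0.22 to 0.08).

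Promoters of 2 HIF targets called in macrophages only are shown in the same layout, with matches to the HIF core ACGTG or GCGTG, or CACGT or CACGC on the other strand, in capitals. They were picked because the window does not run into the annotated gene.
Egln3 (chr12:54203875-54204124, minus strand): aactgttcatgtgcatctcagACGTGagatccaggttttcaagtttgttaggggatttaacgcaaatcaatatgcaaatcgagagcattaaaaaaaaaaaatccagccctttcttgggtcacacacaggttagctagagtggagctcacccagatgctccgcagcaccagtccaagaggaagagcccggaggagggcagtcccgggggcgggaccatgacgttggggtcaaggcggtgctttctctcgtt
P4ha1 (chr10:59323046-59323295, plus strand): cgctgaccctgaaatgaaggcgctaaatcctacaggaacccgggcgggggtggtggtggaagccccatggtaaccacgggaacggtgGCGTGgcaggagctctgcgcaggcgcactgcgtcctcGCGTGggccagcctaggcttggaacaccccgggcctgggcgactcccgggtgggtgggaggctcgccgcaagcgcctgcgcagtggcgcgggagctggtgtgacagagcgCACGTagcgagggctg

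P4ha1 encodes a collagen prolyl hydroxylase, with a difference of -0.57 ± 0.07 (adjusted p = 0.00025). The core was in 19 of 23 promoters (82.6%) of HIF targets outside glycolysis and in 14 of 20 (70.0%) of glycolysis genes, beside 55.2% of all promoters matched. In genes higher in macrophages only it was in 86 of 153 (56.2%), close to that background.

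Macrophage-only changes reached beyond HIF targets. S1pr1, a receptor for sphingosine-1-phosphate, rose from 44.4, 45.5 and 46.2 to 95.2, 83.6 and 96.5 CPM in macrophages and was at 59.5, 53.5 and 59.3 (WT) and 60.4, 57.3 and 57.2 (PHD2_KO) CPM in fibroblasts. In fibroblasts the groups overlapped, and the effects differed by -0.99 ± 0.09 (adjusted p = 4.7e-05). Myc, the growth-promoting transcription factor, was at 1.17, 1.94 and 1.095 (WT) and 3.096, 2.94 and 2.47 (PHD2_KO) CPM in macrophages, with a difference of -1.17 ± 0.25 (adjusted p = 0.0087). The adaptor Shc2, Fam129c, Erdr1, Utp14b and the p38 kinase gene Mapk11 had macrophage effects from 1.05 to 1.45. The calls of the difference for Mapk11 and Tnfsf10, a death ligand, were each lost without 1 library in 9 of 12 fits.

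Genes lower in macrophages only included some of amino acid transport and synthesis. Slc7a5, the light chain of the LAT1 transporter, was at 11.6, 9.38 and 10.4 (WT) and 4.01, 3.76 and 3.57 (PHD2_KO) CPM in macrophages against 205, 197 and 209 (WT) and 215, 219 and 223 (PHD2_KO) CPM in fibroblasts. Its difference was 1.57 ± 0.11 (adjusted p = 5e-06). Phgdh, the first enzyme of serine synthesis, had macrophage and fibroblast effects of -1.32 and -0.08. Both are on the list of the integrated stress response, of which 9 of 26 were lower and 0 higher in macrophages, 2 higher and 3 lower in fibroblasts, and 8 higher in the difference (median 0.15). By limma-voom and with the replicate block, 1 was higher in macrophages, and with 1 library left out the 9 became 6 to 15. Of 19 genes of the unfolded protein response, 11 were lower in macrophages and 3 in fibroblasts, and 3 were higher in the difference (median 0.13). With 1 library left out, these counts ran from 4 to 16 (4 without replicate 1 of the WT or replicate 2 of the PHD2_KO macrophages, 16 without the first WT medium library), from 0 to 4 and from 1 to 8, and the replicate block gave 6, 1 and 1. Of 8 tested MHC class II genes, 7 were lower in macrophages, 1 was higher in fibroblasts and 4 were higher in the difference (median 1.05), with 5 of the 8 of macrophage type. After subtraction of the macrophage share, 0 of the 8 were higher and 1 was lower in the difference, and the fibroblast median went from 0.40 (0.07 with genes near 0 counts at their bound) to -0.16. The pyrin-domain gene Pydc3, Fam171a1 and the histone methyltransferase gene Suv39h2 also fell in macrophages, with log2 effects of -1.76, -1.46 and -1.27.

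Genes of cholesterol synthesis fell in fibroblasts. Of 23 tested genes, 22 were lower in fibroblasts and 0 were called in macrophages by edgeR, DESeq2 or limma-voom (4 at an unadjusted p under 0.05 by edgeR), and 13 were lower in the difference, with medians of -0.34, -0.01 and -0.31. With 1 library left out, the 22 became 17 to 22 and the 13 became 8 to 15, and without the first WT medium library 1 was higher and 3 lower in macrophages. Tm7sf2, a sterol reductase, went from 52.9, 45.7 and 46.1 to 31.04, 30.9 and 27.6 CPM in fibroblasts and was at 12.7, 16.6 and 15.3 (WT) and 14.8, 16.7 and 14.3 (PHD2_KO) CPM in macrophages, a difference of -0.73 ± 0.14 (adjusted p = 0.0047). Idi1, which isomerizes the isoprenoid unit, went from 288, 272 and 259 to 204, 200.1 and 207 CPM in fibroblasts, with a difference of -0.61 ± 0.08 (adjusted p = 0.00043). The exception was Srebf2, which encodes the regulator of the pathway, at -0.06 and -0.04 with an interval of the difference of -0.16 to 0.12. The group stayed lower with replicate 2 as the only library in PHD2_KO medium in its median (-0.33), though 8 of 23 then passed. Of 12 fatty acid synthesis genes, 5 were lower in fibroblasts and 2 in macrophages, and 1 was higher in the difference (median 0.07). The 5 became 1 without replicate 3 of the PHD2_KO medium group and 7 without the first WT medium library.

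Among single genes higher in fibroblasts only was Arrdc4, an alpha-arrestin. It went from 5.85, 5.84 and 5.76 to 14.1, 20.6 and 19.95 CPM in fibroblasts and was at 10.9, 11.5 and 12.8 (WT) and 12.9, 13.9 and 12.9 (PHD2_KO) CPM in macrophages, a difference of 1.47 ± 0.19 (adjusted p = 0.00036). Its relative Txnip, which binds thioredoxin and curbs glucose uptake, rose in both cell types but far more in fibroblasts. Txnip was at 50.5, 54.1 and 59.2 (WT) and 192, 226 and 219 (PHD2_KO) CPM in fibroblasts and at 471, 474 and 465 (WT) and 566, 570.0 and 573 (PHD2_KO) CPM in macrophages, with effects of 1.96 and 0.28 and a difference of 1.68 ± 0.10 (adjusted p = 1.1e-06). Another alpha-arrestin gene, Arrdc3, moved in opposite directions as given above.

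Col15a1, a basement membrane-associated collagen, rose from 1.93, 1.89 and 2.48 to 5.29, 6.19 and 4.94 CPM in fibroblasts (difference 1.39 ± 0.22, adjusted p = 0.0012). Of 22 tested collagens, 6 were higher in fibroblasts and 4 in macrophages, 0 were lower in either by edgeR, and 1 was higher and 3 lower in the difference, with medians of 0.15, 0.69 and -0.72. Lower in fibroblasts were 2 by limma-voom and 5 by edgeR without the first WT medium library. By DESeq2, 9 were higher and 1 lower in fibroblasts, 6 higher in macrophages, and 1 higher and 7 lower in the difference. The 4 higher in macrophages became 2 without replicate 1 of the WT macrophages. The median of the difference was -0.40 by limma-voom, -0.36 without replicate 1 of the WT macrophages, where 1 was lower, and -0.19 for the 7 with at least 10 counts in every library. Only 9 of the 22 were measured in both, so the macrophage and difference medians rest mostly on genes with few macrophage counts. Col6a1, for example, had macrophage CPM of 0.195, 0.727 and 0.0608 (WT) and 1.09, 1.37 and 1.63 (PHD2_KO) beside 1745, 1819 and 1902 in fibroblasts in WT medium.

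Nfkbie, an inhibitor of NFkB, and the chemokine gene Ccl5 were also higher in fibroblasts only. Nfkbie was at 3.92, 3.301 and 3.33 (WT) and 6.78, 4.28 and 8.57 (PHD2_KO) CPM in fibroblasts, lowest in replicate 2 of the PHD2_KO medium group, and its difference was 1.16 ± 0.24 (adjusted p = 0.0069 by edgeR, and 0.151 with that replicate as the only one). Of 27 tested NFkB and TNF response genes, 14 were higher and 1 lower in fibroblasts, 3 lower in macrophages and 16 higher in the difference (median 0.46). The 3 became 1 without replicate 1 of the WT macrophages. They became 5 without the first WT medium library or replicate 2 of the PHD2_KO medium group. The fibroblast median was 0.61, or 0.28 with genes near 0 counts at their lower bound. Of these 27, 9 were of macrophage type, and after subtraction of the macrophage share 11 were higher in fibroblasts and 10 in the difference, which also held 10 without replicate 1 of the WT macrophages. The interferon-induced genes Xaf1 and Helz2 lost the call of their difference in 7 and 6 of the 12 fits without 1 library.

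Dio2, the deiodinase that activates thyroid hormone, fell in fibroblasts only. It was at 3.103, 3.92 and 2.696 CPM in WT medium and 1.03, 1.099 and 1.02 CPM in PHD2_KO medium, against 16.6, 14.5 and 14.5 (WT) and 14.8, 13.3 and 14.1 (PHD2_KO) CPM in macrophages. The difference was -1.53 ± 0.21 (adjusted p = 0.00047). Psrc1, a spindle protein and p53 target, fell from 60.4, 62.6 and 60.3 to 36.02, 36.7 and 37.7 CPM in fibroblasts, and its macrophage groups were within 3 CPM of each other. Of 18 tested p53 targets, 13 were lower and 0 higher in fibroblasts by edgeR (12 and 1 by DESeq2), 2 higher and 4 lower in macrophages, and 1 was higher and 4 lower in the difference (median -0.22). The 4 lower in macrophages became 0 without replicate 1 of the WT macrophages, 1 without replicate 1 or 2 of the PHD2_KO macrophages and 7 without the first WT medium library. Ccng1, a cyclin induced by p53, had effects of -0.57 in fibroblasts and -0.02 in macrophages, and Trp53inp1 of -0.69 and -0.09. Slc39a10 (a zinc importer), Pde8b (a cAMP phosphodiesterase), Atg16l2 and Hspb6 (a small heat shock protein) had fibroblast effects between -1.08 and -0.78.

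Of 16 contractile genes, 9 were lower in fibroblasts, 1 was higher and 1 lower in macrophages, and 1 was higher and 3 lower in the difference (median -0.24). The 3 became 1 without replicate 1 of the WT macrophages or replicates 1 or 3 of the PHD2_KO macrophages. Acta2, smooth muscle actin, was at 441, 392 and 402 (WT) and 203, 188 and 189.7 (PHD2_KO) CPM in fibroblasts and under 1 CPM in all 6 macrophage libraries, and the interval of its difference was -1.51 to -0.27. Cnn2, a calponin measured in both, had a difference of -0.80 ± 0.10 (adjusted p = 0.00031). Of 19 tested TGF-beta targets, 4 were higher and 6 lower in fibroblasts, 1 higher and 2 lower in macrophages, and 3 higher and 1 lower in the difference (median -0.0026).

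**Figure D4:**
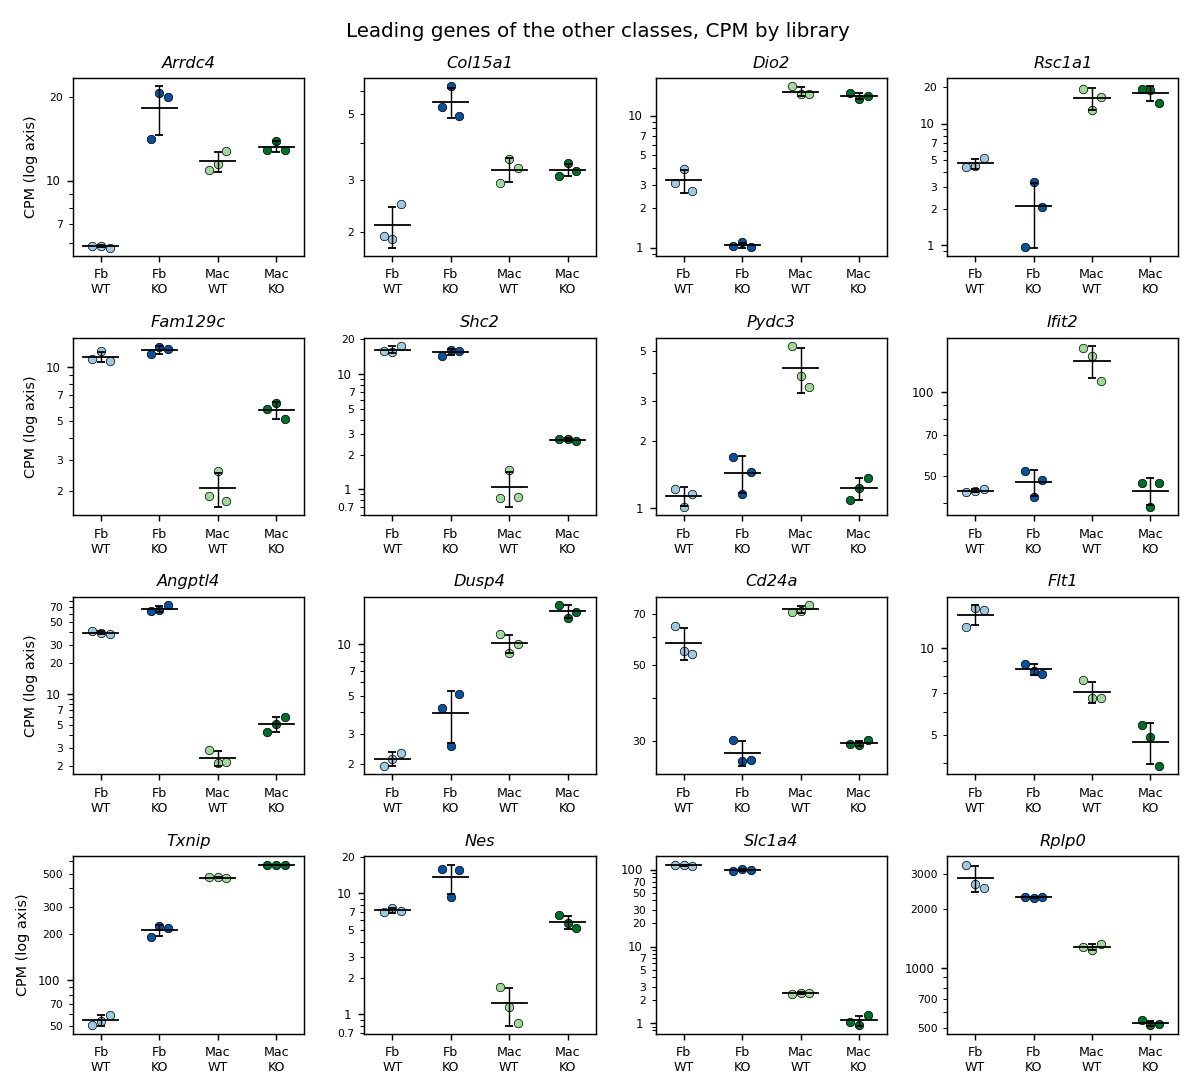
CPM (log axis) by library of the 2 leading named genes per direction of the other classes, with group mean and SD (n = 3), labelled as fibroblasts (Fb) or macrophages (Mac) with the WT or PHD2_KO (KO) label. Arrdc4, Col15a1, Dio2 and Rsc1a1 lie far apart by label in fibroblasts and close together in macrophages, Fam129c, Shc2, Pydc3 and Ifit2 separate in macrophages alone, and the last 8 genes move the same way in both.

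Proliferation genes had positive medians in both cell types. Of 31 S phase genes, 15 were higher in fibroblasts and 11 in macrophages, 0 lower in either, and 1 was higher and 1 lower in the difference, with medians of 0.26, 0.27 and 0.02. Of 32 genes of G2 and mitosis, 21 were higher in fibroblasts, 9 in macrophages, 0 lower in either and 0 called in the difference, with medians of 0.28, 0.24 and 0.05. The count of 0 by edgeR stood beside 1 by DESeq2, 0 by limma-voom and 2 at an unadjusted p under 0.05. The calls depended on single libraries. For G2 and mitosis, the 9 in macrophages became 1 without replicate 1 of the WT macrophages, 2 without replicate 1 of the PHD2_KO macrophages and 3 with the replicate block, and the 21 in fibroblasts became 8 without replicate 3 and 12 without replicate 1 of the PHD2_KO medium group. For S phase, the counts ran from 9 to 23 in fibroblasts and from 7 to 12 in macrophages with 1 library left out, and macrophages had the larger count in 4 of these fits, those without WT medium replicates 2 or 3 or PHD2_KO medium replicates 1 or 3. The 2 lists gave 9 and 6 genes of the alike class. Top2a, a topoisomerase of dividing cells, had effects of 0.36 and 0.31 with an interval of the difference of -0.14 to 0.24. The named gene Cdk6, a kinase of the G1 phase, was at 38.1, 51.1 and 52.6 (WT) and 64.4, 59.6 and 68.7 (PHD2_KO) CPM in fibroblasts and at 68.4, 74.1 and 63.6 (WT) and 102, 96.8 and 92.6 (PHD2_KO) CPM in macrophages. Fanci and Iqgap3, which act in DNA repair and cell division, rose in both too, with intervals of the difference of -0.34 to 0.30 and -0.31 to 0.19. In fibroblasts, with replicate 2 as the only one in PHD2_KO medium, 0 genes of either list were called, with medians of 0.21 and 0.21.

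Of the 95 alike genes outside the macrophage type, 67 rose and 28 fell. In 86 of them the 95% interval of the difference lay within 1.5-fold. Cd24a, a glycosylated surface protein, fell from 64.4, 54.8 and 53.5 to 30.4, 26.3 and 26.4 CPM in fibroblasts and from 70.8, 71.5 and 74.2 to 29.4, 29.3 and 30.2 CPM in macrophages. Its effects were -1.05 and -1.28, with an interval of the difference of -0.00028 to 0.46. Ahr, the aryl hydrocarbon receptor, fell from 35.6, 36.4 and 35.5 to 27.4, 29.1 and 28.1 CPM and from 24.1, 24.4 and 23.7 to 17.97, 18.5 and 20.8 CPM in the same order. Its interval of -0.19 to 0.16 was among the narrowest of the named alike genes, with that of Acss2, an acetyl-CoA synthetase (-0.12 to 0.24).

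Angptl4, a secreted inhibitor of lipoprotein lipase that responds to both HIF and PPAR, rose from 40.9, 39.4 and 38.1 to 63.5, 65.2 and 73.03 CPM in fibroblasts and from 2.86, 2.12 and 2.19 to 4.25, 5.05 and 5.98 CPM in macrophages. Its interval of -0.74 to 0.07 leaves room for a larger rise in macrophages. The MAPK phosphatase Dusp4 and the ETS factor Etv5 rose in both as well, with differences of 0.29 (-0.30 to 0.89) and -0.39 (-0.77 to -0.01). Of 21 immediate early and MAPK feedback genes, 6 were higher and 2 lower in fibroblasts, 5 higher in macrophages, and 1 was higher and 2 lower in the difference (median -0.21). The 5 became 1 without replicate 1 or 3 of the WT macrophages and 2 without replicate 1 of the PHD2_KO macrophages, and the 6 became 3 without replicate 3 of the PHD2_KO medium group. Flt1, a VEGF receptor, Zmat3, a p53-induced RNA-binding protein, and Pmepa1, a brake on TGF-beta signalling, fell in both, Flt1 with effects of -0.63 and -0.58. The gelatinase Mmp9 rose in both, from 8.801, 9.07 and 10.4 to 31.2, 24.8 and 37.5 CPM in fibroblasts, but its macrophage CPM of 0.519, 0.182 and 0.243 (WT) and 1.58, 1.298 and 1.36 (PHD2_KO) leave a wide interval of -1.48 to 0.61.

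Genes that moved the same way by different amounts included Mmp14, the membrane-bound collagenase. It was at 475, 472 and 487 (WT) and 392, 421 and 388 (PHD2_KO) CPM in fibroblasts and at 22.7, 23.7 and 20.3 (WT) and 10.1, 10.5 and 9.76 (PHD2_KO) CPM in macrophages, a difference of 0.88 ± 0.09 (adjusted p = 0.00013). Thbs1, a matricellular activator of TGF-beta, also fell less in fibroblasts (-0.69) than in macrophages (-1.27). Slc1a4, a neutral amino acid transporter, had effects of -0.20 and -1.16. Nes, an intermediate filament protein, rose in both, by 0.91 in fibroblasts and 2.24 in macrophages, and lost the call of its difference in 3 of the 12 fits without 1 library. Rplp0, a ribosomal protein gene with near-identical processed pseudogenes, had effects of -0.32 and -1.28, which are uncertain for that reason. Of 14 tested matrix proteases and inhibitors, 4 were higher and 5 lower in fibroblasts, 4 higher and 1 lower in macrophages, and 1 was higher and 2 lower in the difference (median -0.26). The 4 higher in macrophages became 0 to 2 without any 1 macrophage library, and the median of the difference was -0.06 without replicate 1 of the PHD2_KO macrophages and 0.16 for the 5 with at least 10 counts in every library.

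Of 15 tested STAT3 and acute phase genes, 1 was higher and 1 lower in fibroblasts, 1 was lower in macrophages and 3 were higher in the difference (median 0.25), among them the complement gene C3 at 1.52 ± 0.31. The 1 lower in macrophages became 5 without the first WT medium library. Of 32 lysosome genes, 5 were higher and 6 lower in fibroblasts, 2 higher and 1 lower in macrophages, and 2 higher and 3 lower in the difference (median -0.08). By DESeq2, 5 were higher and 4 lower in the difference. Without replicate 2 of the PHD2_KO medium group, 5 were higher and 3 lower (median -0.029). After subtraction of the macrophage share, 1 was higher and 14 lower in fibroblasts, and 0 were higher and 8 lower in the difference. Of 16 clock genes, 1 was higher and 1 lower in fibroblasts, 0 were called in macrophages (0 at an unadjusted p under 0.05, 0 by DESeq2), and 1 was higher and 1 lower in the difference (median -0.01). In fibroblasts 4 were lower without the first WT medium library, and 0 were higher without replicate 2 of that group or replicates 1 or 3 of the PHD2_KO medium group. Of 32 respiratory chain subunits, 1 was lower in fibroblasts and 0 were called in macrophages or in the difference by edgeR (median -0.06). At an unadjusted p under 0.05 these were 2 and 0, and by DESeq2 1 and 0. Without the first WT medium library, 1 was higher and 2 lower in macrophages and 2 were higher in the difference (median 0.03), and without replicate 3 of that group 3 were lower in fibroblasts. The medians of the difference for S phase, TGF-beta targets, clock genes and the respiratory chain changed sign in at least 1 fit without 1 library. Spp1, which encodes osteopontin, rose in fibroblasts by 0.57 ± 0.14 (adjusted p = 0.019) and its effect in macrophages was 0.35 ± 0.14 (adjusted p = 0.19), with an interval of the difference of -0.23 to 0.65.

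**Figure D5:**
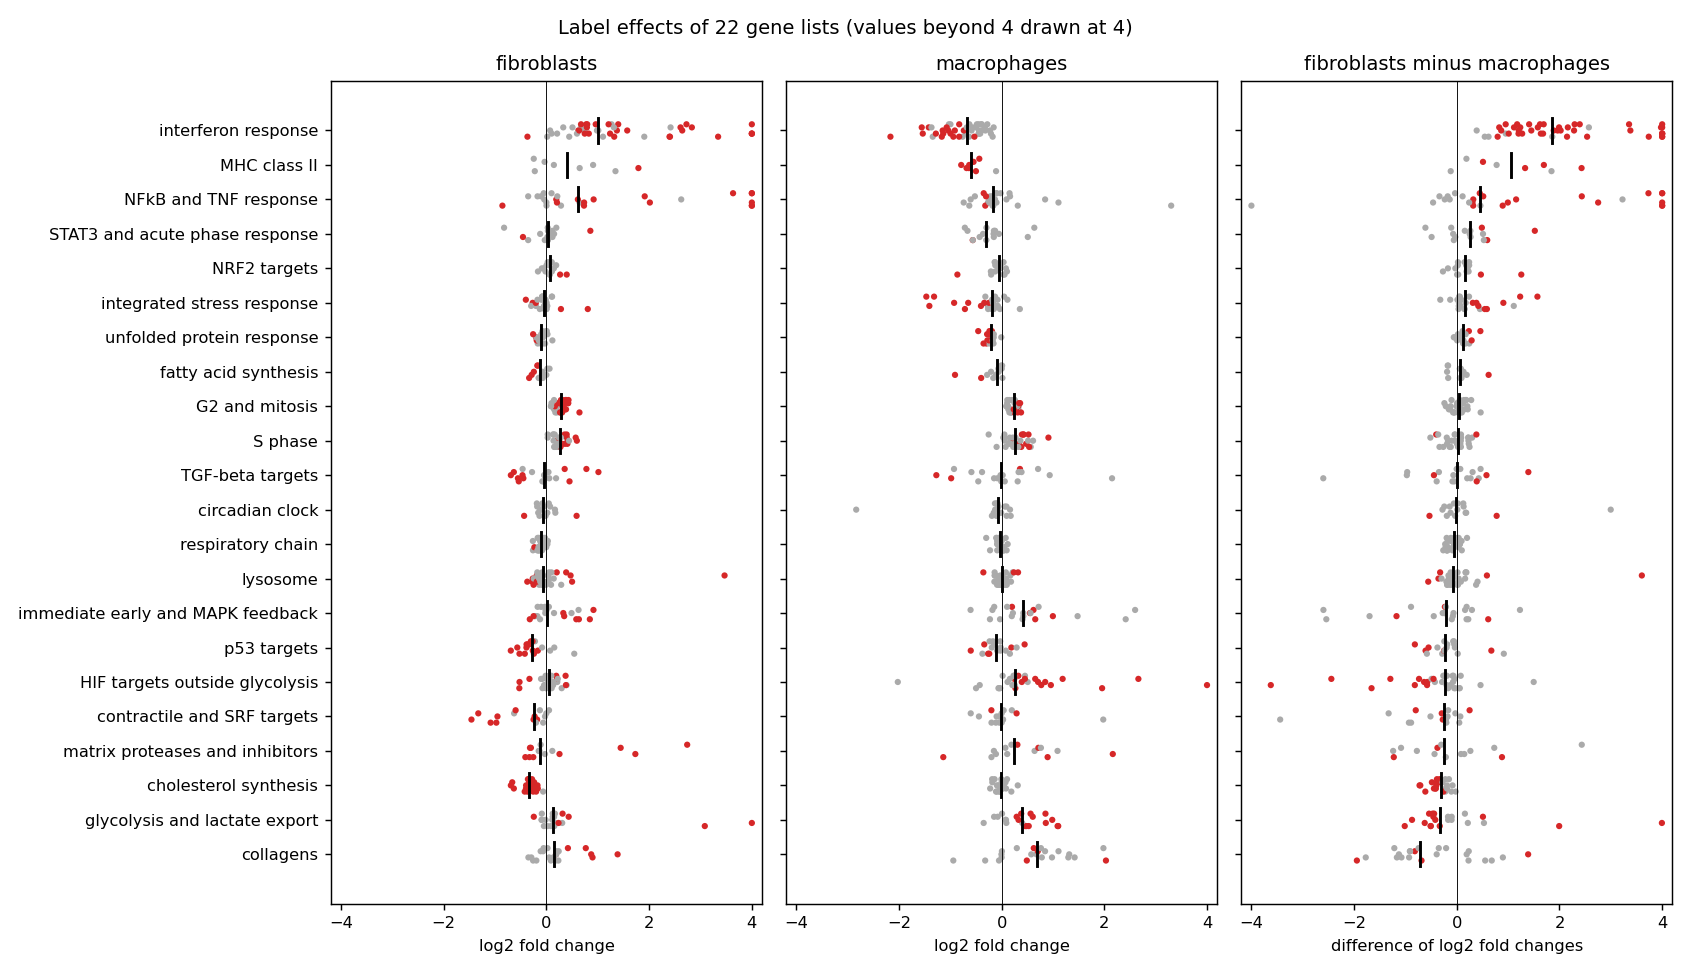
Label effect (log2) of every tested gene of 22 hand-written lists in fibroblasts, in macrophages and as the difference, red where the adjusted p was under 0.05 and grey otherwise, with the list median as a black bar and lists ordered by the median of the difference. The interferon list sits to the right in fibroblasts and to the left in macrophages, cholesterol synthesis to the left in fibroblasts alone, and S phase and G2 to the right in both.

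Leaving out libraries moved the counts of the classes. Opposite directions held 239 genes without the first WT medium library and 34 with replicate 2 alone in PHD2_KO medium, of which 12 were shared with the 97. The class of alike genes held 240 and 18 in the same fits, fibroblasts only 972 and 203, and macrophages only 629 and 259. After subtraction of the macrophage share the counts were 97, 107, 587 and 373 in that order, with 74, 90, 516 and 335 genes shared with the original classes.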

How the data were processed

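RNA was sequenced from 12 mouse libraries, 3 in each of 4 groups taken from the labels. Per the labels and the study's methods, the authors quantified reads with Kallisto against GRCm38 and deposited estimated counts per gene symbol, which are whole numbers in the table, and how they became whole is not given in the sources used here. Kallisto divides reads among near-identical transcripts, so close relatives can share counts. All 12 count columns were matched to a sample, with 0 left unmatched. Bounds from low counts reflect counting error alone.

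The counts were fitted in edgeR (version 4.0.16, R 4.3.3) with TMM scaling and its filter for low counts, which kept 14285 of 32544 genes. The quasi-likelihood F test on 4 group means gave the label effect in each cell type and their difference, with Benjamini-Hochberg adjustment over all genes tested and a threshold of 0.05. CPM are counts per 1e+06 of the TMM-scaled library size. Folds against a group at or under 3 counts are lower bounds. A gene of macrophage type had 10 times or more CPM in BMDMs, averaged over both labels, than in fibroblasts in WT medium. For the subtraction, the share of macrophage RNA in a fibroblast library was taken as its summed CPM of 23 macrophage markers over that of BMDMs of the same label, and that share of the BMDM profile was removed from its counts.

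Genes were named by rule as the 8 per class and direction (3 for different size) with the largest difference (opposite, different size), label effect (1 cell type only) or smaller of both effects (alike). They had a mean of at least 1 CPM in all 4 groups, were not of macrophage type, did not overlap between labels where the class rests on that effect, and in classes of 1 cell type had an unadjusted p above 0.05 in the other. Unnamed gene models and pseudogenes were passed over, and some details are not reported here. Members of 22 hand-written lists, Egln1, Spp1 and Bnip3 were named too. The members and lists were chosen with earlier results of these data known. Alternatives were DESeq2 (1.42.0), limma-voom (limma 3.58.1), other scalings and filters, a replicate block, the removal of macrophage-type genes or of the macrophage share, each cell type fitted alone, and each library left out. The fit with 1 library in PHD2_KO medium was chosen after seeing the data. Gene models of the mouse reference annotation matched 31400 symbols directly and 508 by an older symbol, and 636 found no match. Promoters came from RefSeq (GRCm38.p6), which matched 10683 of the 14285 genes by symbol, and 2156 genes have several listed starts, of which 1 window each was used.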

Additional observations from a re-analysis of the deposited data

Results flagged for a closer look

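The results below were listed because the test of the difference between the label effects in fibroblasts and macrophages itself passed (edgeR, adjusted p under 0.05). This held for 1102 genes with the higher effect in fibroblasts and 654 with the lower, sorted into 97 genes of opposite direction, 833 called in fibroblasts only, 386 called in macrophages only and 26 of the same direction but different size.

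Among named genes that rose in fibroblasts and fell in macrophages, the log2 difference was 1.96 for Gbp4, 1.90 for Sema3c, 1.82 for Ifi47, 1.62 for Gbp7, 1.45 for Ifi205, 1.26 for Nqo1, 1.20 for Ifi203 and 0.96 for Ly6e. In the reverse direction it was -1.98 for Npas4, -1.58 for Armc6, -1.05 for Cyp2j6, -0.83 for Gpr176, -0.83 for Colec12, -0.82 for Plk2, -0.81 for Vash2 and -0.78 for Arrdc3.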

How the results depend on the processing

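Under DESeq2 size factors, TMM within each cell type, the DESeq2 test, limma-voom, at least 10 counts per library, a filter of 1 count in all, no limit on level for the classes, and subtraction of the macrophage share, the counts higher and lower in the difference and those of the 5 classes stayed within 1.5 times the value reported, and no scaling moved the median of all genes by 0.03 or more on the log2 scale. The count higher in fibroblasts alone was 838 with at least 10 counts. Without macrophage-type genes, 490 genes were higher in the difference and 384 were called in fibroblasts only. With label effects from each cell type alone, the classes held 171 (opposite), 318 (fibroblasts only), 684 (macrophages only) and 84 (different size). With replicate 2 as the only fibroblast library in PHD2_KO medium, assumed to vary like the others and chosen after seeing the data, 438 genes were higher and 231 lower, and the classes held 34 (opposite), 203 (fibroblasts only) and 18 (alike). Without 1 library, the counts ran from 818 to 1467 (higher), 447 to 849 (lower), 48 to 239 (opposite), 540 to 972 (fibroblasts only), 248 to 629 (macrophages only), 50 to 240 (alike) and 11 to 69 (different size). The highest came without the first WT medium library, except 69 without the second PHD2_KO medium library, and the lowest without replicate 1 of the PHD2_KO medium group or without 1 macrophage library. Subtraction of the macrophage share turned the log2 difference from 0.45 to -1.13 for Atf3, from 1.33 to -5.39 for Cd74, from 3.60 to -1.55 for Ctsh and from 0.73 to -2.01 for Mmp12, and the cause was not tested gene by gene. Of the 54 genes named by rule whose difference was called, 50 kept that call with limma-voom, 52 after the subtraction and 45 with replicate 2 alone.

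The replicate block gave 943 higher, 495 lower, 85 opposite, 675 fibroblasts only, 313 macrophages only, 71 alike and 36 of different size, each within 1.5 times. The deviations of same-numbered libraries correlated at 0.0487, 0.0524 and -0.103 in fibroblasts and at -0.0342, 0.00521 and 0.01 in macrophages. Pairs with unlike numbers ran from -0.109 to 0.112 in fibroblasts and from -0.0275 to 0.0232 in macrophages. These values cannot show whether same-numbered libraries shared a mouse, day or batch. A match between fibroblast and macrophage libraries of 1 number was not tested. Low levels limit the collagens and contractile genes in macrophages, where many were under 1 CPM.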

Other observations

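Of 371 genes called in macrophages only, outside the macrophage type, 50 (13.5%) lay on chromosome 8, which also carries Egln1, beside 749 of the 14285 genes tested (5.24%). With macrophage-type genes included, 386 of the 14285 genes tested were called in macrophages only, 51 of them on chromosome 8. On that chromosome the share called was 14.6% between 60 and 80 Mb (23 of 158 genes tested, 14 higher and 9 lower). It was 10.0% between 40 and 60 Mb, 9.2% between 120 and 140 Mb and 6.47% between 80 and 100 Mb. Between 100 and 120 Mb it was 3.42%, between 0 and 20 Mb 1.18%, and between 20 and 40 Mb 0 of 84 genes were called. On chromosome 8 also lay 7 of 69 genes of opposite direction (10.1%) and 2 of 19 of the same direction but different size (10.5%). It held 32 of 454 called in fibroblasts only (7.05%) and 4 of 95 alike genes (4.21%), and these shares were not tested against each other. Chromosome 5 likewise held 7 of the 69 opposite genes (10.1%), and chromosome 3 held 3 of the 19 of different size (15.8%). The pattern of macrophage-only calls on chromosome 8 was noticed after the values were seen and was not tested.

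The largest label effect in macrophages belonged to Gm8730, a processed pseudogene on chromosome 8 singled out after its values were seen. Its mean was 0.128 CPM in WT macrophages and 379 CPM in PHD2_KO macrophages, against 220.2 and 177 CPM in fibroblasts. Processed pseudogenes can share reads with their parent genes, and how their counts were divided was not tested.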
